A study of Homo sapiens with 21 samples.

Results

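NF-kB pathway components and feedback genes, 39 genes in all, were described in proliferating and senescent IMR90 cells, which are human lung fibroblasts. The genes were taken by symbol from a list, and each reached a value of 10 or more in 3 or more libraries, so all 39 were among the 11579 genes tested of the 16383 in the table. RNA was sequenced after poly(A) capture in 7 groups of 3 libraries each, 21 in all, and the genotype of every group is wild type in the labels. The Proliferating group was not irradiated and not transfected, so in each comparison with it irradiation, senescence and transfection cannot be told apart. The 6 senescent groups were irradiated, given siRNA at 5 nM on day 4 and again on day 7, and collected on day 10 after irradiation. Of these, 2 groups received a non-targeting siRNA, named NT3 and NT4 in the sample titles (the series description numbers them otherwise). The other 4 groups received siRNA against CCND1, against CDK4, against CDK6, or against CDK4 and CDK6 together, called dual knockdown here. CCND1 encodes cyclin D1, the partner of the kinases CDK4 and CDK6. Each target is listed with 1 siRNA name, and what an siRNA does outside its target cannot be told apart from what loss of the target does. The labels do not say whether replicates came from separate cultures, so p-values measure the spread between these libraries, which may be technical.

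NF-kB is a family of dimeric transcription factors that IkB proteins hold inactive in resting cells. Receptors for TNF and IL-1 and the Toll-like receptors act through adaptors, ubiquitin ligases and the IKK kinases, which mark IkB for destruction and let NF-kB reach its genes. Many of these genes encode its own inhibitors, among them NFKBIA (IkB alpha) and TNFAIP3 (a ubiquitin-editing enzyme), so their RNA levels follow pathway activity closely in many cell types. In senescent fibroblasts NF-kB, with C/EBP beta (CEBPB), is known as a driver of the secretory phenotype.

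Promoters of 5 members are shown because these genes carry the main patterns below, namely the feedback genes TNFAIP3, BIRC3 and NFKBIA, the adhesion gene VCAM1, which did not follow them, and TNFAIP6, the member with the largest fitted fall. Each sequence runs 5′ to 3′ on the strand of its gene, from 250 bases before to 50 bases after the gene start, in RefSeq for GRCh38.p14, and capitals mark a match to the NF-kB (kB) consensus on either strand.
TNFAIP3 (chr6:137867009-137867308, plus strand): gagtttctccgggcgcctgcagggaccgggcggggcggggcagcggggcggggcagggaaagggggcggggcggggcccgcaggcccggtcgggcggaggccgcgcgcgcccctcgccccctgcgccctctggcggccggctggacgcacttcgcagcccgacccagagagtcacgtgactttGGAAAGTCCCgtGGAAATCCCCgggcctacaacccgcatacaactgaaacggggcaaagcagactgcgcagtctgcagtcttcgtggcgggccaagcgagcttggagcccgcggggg
BIRC3 (chr11:102317234-102317533, plus strand): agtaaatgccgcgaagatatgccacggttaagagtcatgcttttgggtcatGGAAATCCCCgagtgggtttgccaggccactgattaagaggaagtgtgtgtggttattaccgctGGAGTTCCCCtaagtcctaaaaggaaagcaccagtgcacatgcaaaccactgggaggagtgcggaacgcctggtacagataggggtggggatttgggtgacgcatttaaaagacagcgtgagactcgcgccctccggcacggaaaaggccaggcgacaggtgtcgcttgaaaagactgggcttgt
NFKBIA (chr14:35404700-35404999, minus strand): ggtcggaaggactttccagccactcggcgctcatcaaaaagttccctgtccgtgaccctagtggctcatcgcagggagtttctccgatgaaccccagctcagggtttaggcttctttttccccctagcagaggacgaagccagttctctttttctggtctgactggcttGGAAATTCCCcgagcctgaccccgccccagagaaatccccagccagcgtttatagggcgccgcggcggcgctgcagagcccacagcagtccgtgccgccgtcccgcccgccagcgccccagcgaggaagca
VCAM1 (chr1:100719492-100719791, plus strand): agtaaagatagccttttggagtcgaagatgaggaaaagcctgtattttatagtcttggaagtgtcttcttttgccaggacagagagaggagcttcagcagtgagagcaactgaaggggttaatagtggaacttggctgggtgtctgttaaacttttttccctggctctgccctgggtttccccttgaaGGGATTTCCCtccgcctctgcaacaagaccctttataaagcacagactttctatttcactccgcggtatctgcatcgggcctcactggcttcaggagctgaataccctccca
TNFAIP6 (chr2:151357342-151357641, plus strand): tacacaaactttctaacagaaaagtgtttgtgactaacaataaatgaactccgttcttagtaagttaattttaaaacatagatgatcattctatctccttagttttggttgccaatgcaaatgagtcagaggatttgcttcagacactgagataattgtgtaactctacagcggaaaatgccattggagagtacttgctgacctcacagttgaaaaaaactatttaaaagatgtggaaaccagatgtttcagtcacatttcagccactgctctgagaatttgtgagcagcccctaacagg

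RefSeq promoters were matched for 34 of the 39 members (none for RELB, NFKBIE, IKBKB, RIPK2 and CEBPD). The kB consensus of 10 bases, searched on both strands and counted once where it reads the same on each, was found in 11 of the 34 (32.4%) and in 3956 of all 35114 promoters of this length in the table (11.3%). The 11 were NFKB1, REL, NFKBIA, NFKBIZ, BCL3, MAP3K8, IRAK1, TRAF3, BIRC3, TNFAIP3 and VCAM1. TNFAIP3 had matches starting at -67 and -55 relative to the gene start, BIRC3 at -199 and -135, NFKBIA at -81 and VCAM1 at -62. A match is a run of letters and not a measured binding site. The genes with a match included TNFAIP3 and BIRC3, which fell by more than 1 log2 unit after CDK6 knockdown, and also VCAM1, which was 0.23 against NT3 and 0.56 against NT4 in that comparison. TNFAIP6, which also fell by more than 1 log2 unit against each control after CDK6 knockdown, had no match.

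Depth ranged from 12892442 to 21822152 reads per library over the genes of the table. The siRNA targets fell in their own groups, with log2 differences against NT3 and NT4 of -2.78 and -3.32 for CCND1 in CCND1 knockdown. The same differences were -3.48 and -3.55 for CDK4 in CDK4 knockdown, and -2.70 and -2.49 for CDK6 in CDK6 knockdown. In dual knockdown they were -3.36 and -3.43 for CDK4 and -2.38 and -2.16 for CDK6. NT3 replicate 3 stood apart from its group, with an SD of log2 deviations from the group mean of 0.258 over the members against 0.0945 to 0.183 in the other libraries. Counts of members called against NT3 are therefore also given without it. All 10 fibroblast markers were tested, with COL1A1 at 186736 to 419002. Of the epithelial, leukocyte and endothelial markers, CDH1, PTPRC, LYZ, CDH5 and PECAM1 did not exceed 20.6 in any library. Other markers of these lists reached higher values. Among them were EPCAM (12.24 to 47.75), MUC1 (up to 241.88), CD14 (up to 37.95), CSF1R (up to 36.73) and VWF (up to 22.33). The endothelial list (3 of 6 tested) summed to 4093 to 4509 after CDK6 knockdown, 3441 to 3694 after dual knockdown, 2607 to 3723 in NT3 and 2059 to 2439.8 in NT4, nearly all of it TEK, with CDH5 at 0 to 3.28. The leukocyte list (3 of 8 tested) summed to 1520.3 to 1624 after CDK4 knockdown and 662 to 1460.1 in the other groups, nearly all of it CD68, with PTPRC at 0 to 8.90. The epithelial list (5 of 8 tested) summed to 1724 to 2910.1 over all libraries, mostly keratin genes, with CDH1 at 0 to 11.04. The part of these lists in the results was not tested. Values throughout are reads scaled by 1 size factor per library and not per length, so levels are compared within a gene and not between genes. In bulk RNA, fewer cells with a transcript and less transcript per cell cannot be told apart.

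**Figure D1:**
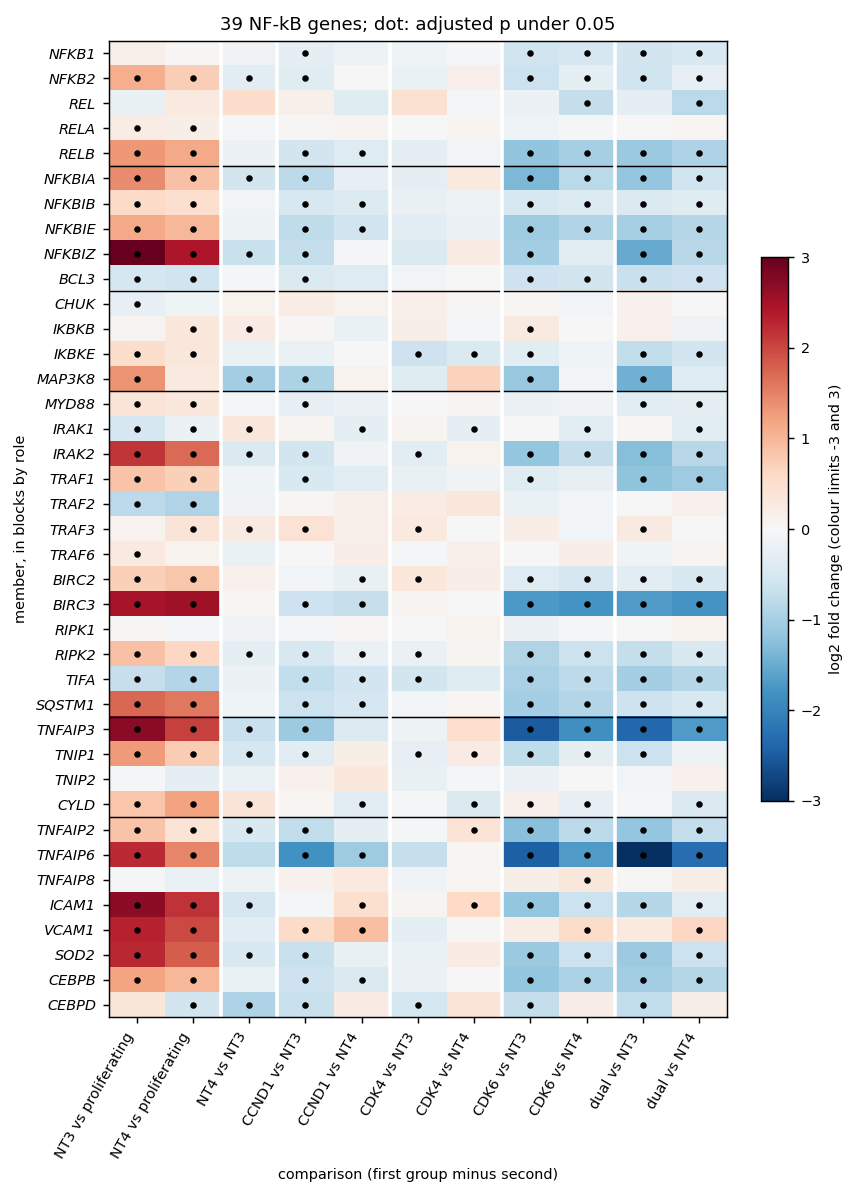
Heat map of the log2 fold changes of the 39 members (rows, in blocks by role) in 11 comparisons (columns, first group minus second), from the limma fit, with colours from -3 (blue) to 3 (red) and a dot where the adjusted p is under 0.05. TNFAIP3, BIRC3, NFKBIA, RELB and CEBPB are red in both senescent controls and blue after CDK6 and dual knockdown, while RELA, RIPK1 and TRAF6 stay pale in the knockdown columns.

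Most members were higher in senescent controls than in proliferating cells. By limma with Benjamini-Hochberg adjustment over all tested genes at 0.05, 26 members were higher and 5 lower in NT3, and likewise 26 and 5 in NT4. These were 79.5% of the members in each comparison, against a background of 67.0% of all tested genes for NT3 (31.8% higher, 35.2% lower) and 63.3% for NT4 (30.1% higher, 33.2% lower). Against proliferating cells in both controls 24 members rose (background 24.9%) and 4 fell, namely BCL3, IRAK1, TRAF2 and TIFA (background 27.4%). A rise of at least 1 log2 unit in both was seen for 10 members, with a background of 8.71%. The members' median log2 difference was 0.83 for NT3 and 0.50 for NT4, and over all tested genes -0.029 and -0.017. Median centring moved these medians over all genes by 0.118 and 0.107. It moved the share of higher among all called genes from 47.4% to 57.6% for NT3 and from 47.5% to 58.2% for NT4, and the members' counts to 30 higher and 4 lower for NT3 and 26 and 4 for NT4. Without NT3 replicate 3, 34 members were called for NT3 (29 higher, 5 lower). For fits with a library left out, here and below, the share of all tested genes called was not counted.

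TNFAIP3, BIRC3, NFKBIA, RELB and CEBPB were among the members lower than both controls after CDK6 knockdown and after dual knockdown. A call against both controls means past the threshold in the same direction against NT3 and against NT4. After CDK6 knockdown 20 members (51.3%) were called against both, all lower, with a background of 21.0% of tested genes in either direction and 10.9% lower. After dual knockdown 23 members (59.0%) were called, again all lower, with a background of 23.6% and 12.3% lower. After CCND1 knockdown 9 members were lower and 1 higher (25.6%), with a background of 11.6%, 5.45% lower and 6.14% higher. After CDK4 knockdown the 1 member called was IKBKE, which was lower (2.56%, background 4.67%). DESeq2 called 2 members after CDK4 knockdown, 1 lower and 1 higher. Falls of at least 1 log2 unit against each control were found for TNFAIP3, BIRC3 and TNFAIP6 after CDK6 knockdown (background 1.56%), for these 3 and TRAF1 after dual knockdown (background 3.46%) and for TNFAIP6 after CCND1 knockdown (background 0.397%). The members' median log2 differences against NT3 and NT4 were -0.62 and -0.34 for CDK6 knockdown, -0.64 and -0.45 for dual knockdown, -0.36 and -0.20 for CCND1 knockdown, and -0.16 and 0.055 for CDK4 knockdown. Over all tested genes these medians lay between -0.017 and -0.002. Where libraries are said to lie apart from another group, the background is the share of all tested genes that did not overlap. Against NT3 and NT4 it was 48.4% and 48.9% for CDK6, 45.3% and 52.0% for dual, 33.9% and 33.8% for CDK4, and 43.2% and 42.3% for CCND1 knockdown. For NT3 and NT4 against proliferating cells it was 65.8% and 72.5%.

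With 1 library left out, members called against both controls numbered 18 to 22 after CDK6 knockdown and 19 to 24 after dual knockdown. Without NT4 replicate 2 they numbered 18 and 19. The calls after CCND1 knockdown depended on several libraries. Of the 20 calls after CDK6 knockdown, 18 were kept under every alternative processing that tested the gene and with every single library left out. For dual knockdown 18 of 23 were. TNFAIP6 is among the 18 in each, but it was not tested under the filter at a mean of 100, which held 36 members. For CCND1 knockdown 3 of 10 were kept throughout, namely NFKBIE, BIRC3 and SQSTM1. The number called against both controls after CCND1 knockdown was 6 without NT4 replicate 1 or 2 or CCND1 knockdown replicate 2. It was 5 without CCND1 knockdown replicate 1 and 15 without NT3 replicate 3 (11 lower, 4 higher). Without NT3 replicate 3, 22 members were called after CDK6 knockdown (21 lower, 1 higher) and 24 after dual knockdown (all lower). After CDK4 knockdown 2 were called without it (1 lower, 1 higher). The count after CDK4 knockdown was also 2 without NT3 replicate 2 or CDK4 knockdown replicate 3. CDK6 knockdown had 25 members lower and 2 higher against NT3 (69.2%; background 46.3%, 23.0% higher and 23.4% lower) and 23 lower and 2 higher against NT4 (64.1%; background 30.6%, 15.2% higher and 15.4% lower). Dual knockdown had 26 lower and 1 higher against each control (69.2%; background 44.6%, 22.7% higher and 21.9% lower for NT3 and 36.7%, 18.4% higher and 18.3% lower for NT4). CCND1 knockdown had 23 lower and 2 higher against NT3 (64.1%; background 38.2%, 19.9% higher and 18.3% lower) and 12 lower and 2 higher against NT4 (35.9%; background 19.3%, 10.4% higher and 8.85% lower). The NT4 count for CCND1 knockdown was 8 in both directions together without NT4 replicate 1 or without CCND1 knockdown replicate 1. CDK4 knockdown had 6 lower and 2 higher against NT3 (20.5%; background 25.6%, 13.4% higher and 12.2% lower) and 3 lower and 3 higher against NT4 (15.4%; background 11.6%, 5.66% higher and 5.93% lower). The NT3 count for CDK4 knockdown was 4 in both directions together without CDK4 knockdown replicate 2. Without NT3 replicate 3, the members called against NT3 numbered 28 after CDK6 knockdown (26 lower), 28 after dual knockdown (all lower), 24 after CCND1 knockdown (20 lower) and 7 after CDK4 knockdown (6 lower).

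**Figure D2:**
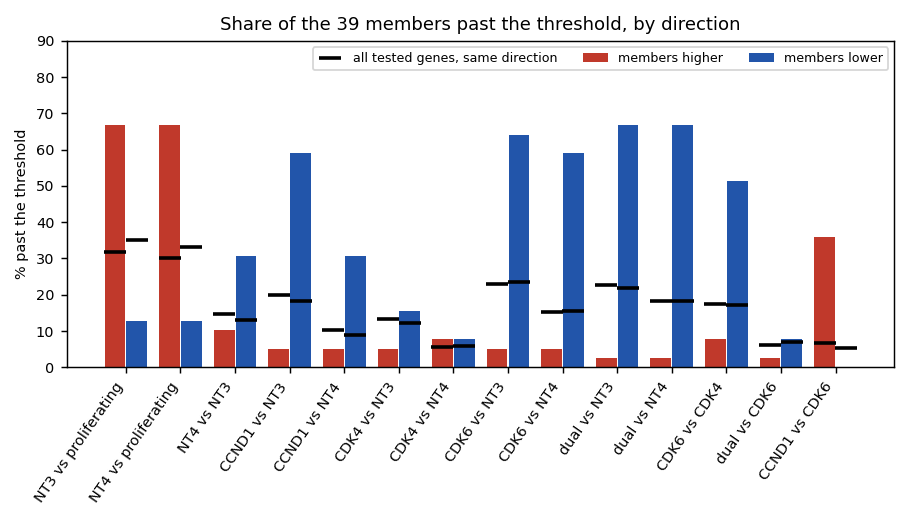
Percentage of the 39 members (y axis) called higher (red bars) and lower (blue bars) in 14 comparisons (x axis), with the percentage of all tested genes called in the same direction as a black line. The blue bars stand above their lines for CCND1, CDK6 and dual knockdown against each control and for CDK6 against CDK4 knockdown. The same holds between the controls, for NT4 against NT3 (30.8%, line at 13.1%). By smaller margins it holds for CDK4 knockdown against NT3 (15.4%, line at 12.2%) and NT4 (7.69%, line at 5.93%). For dual against CDK6 knockdown the bar is at 7.69% and the line at 6.94%.

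Of the 5 DNA-binding subunits, NFKB1, NFKB2 and RELB were lower than both controls after CDK6 knockdown (background 10.9%) and after dual knockdown (background 12.3%), while RELA covered a narrow range. RELA, the main transactivating subunit, was at 1639, 1571 and 1679 in proliferating cells, 2004, 1933 and 1748 in NT3 and 1766, 1903 and 1819.7 in NT4. After CDK6 knockdown it was at 1759, 1774 and 1723, after dual knockdown at 2047, 1843 and 1855, after CDK4 knockdown at 1937, 1879.7 and 1952 and after CCND1 knockdown at 1906, 1920.5 and 2002. All senescent libraries lay above the proliferating ones, and CDK6 and dual knockdown overlapped both controls. RELA was 0.22 (SE 0.058, adjusted p = 0.00238) log2 units higher in NT3 and 0.17 (SE 0.058, adjusted p = 0.0155) higher in NT4 than in proliferating cells, and the NT4 call was lost without NT4 replicate 2 (adjusted p = 0.0716) or Proliferating replicate 2 (adjusted p = 0.0708). After CDK6 knockdown its log2 difference was -0.11 (adjusted p = 0.122) against NT3 and -0.06 (adjusted p = 0.455) against NT4, neither past the threshold. NFKB1, whose precursor gives the commonest partner of RELA, was at 939.8, 955 and 997 in proliferating cells, 1149, 1183 and 885 in NT3 and 965, 1051 and 969.5 in NT4. It was at 719, 756 and 648 after CDK6 knockdown and 703, 759 and 699.7 after dual knockdown, below every library of the other groups. CDK4 knockdown (1062, 976 and 900.0) and CCND1 knockdown (783, 921 and 973) overlapped the controls. NFKB1 fell, with log2 differences of -0.59 (SE 0.098, adjusted p = 4.79e-05) against NT3 after CDK6 knockdown and -0.49 (SE 0.098, adjusted p = 0.000556) against NT4. Its difference from proliferating cells, 0.14 in NT3 and 0.05 in NT4, did not pass the threshold, and after CDK6 knockdown NFKB1 lay below proliferating cells, at -0.45 (adjusted p = 0.000402). RELB, the subunit of the non-canonical arm, had group means of 263 ± 16.8 in proliferating cells, 655 ± 60.2 in NT3, 577 ± 53.2 in NT4, 291 ± 48.2 after CDK6 knockdown and 305 ± 39.5 after dual knockdown (SD, n = 3). It rose by 1.31 and 1.13 in the controls and its differences were -1.18 against NT3 and -0.99 against NT4 after CDK6 knockdown. NFKB2, which dimerizes with RELB, rose by 1.08 and 0.73, and was -0.65 against NT3 and -0.30 against NT4 after CDK6 knockdown. REL, which is best known from lymphoid cells, had the fewest reads of the subunits, 40 in its lowest library. It fell against NT4, with log2 differences of -0.71 (SE 0.26, adjusted p = 0.0446) after CDK6 knockdown and -0.82 (SE 0.26, adjusted p = 0.0176) after dual knockdown, but was -0.19 (adjusted p = 0.588) and -0.30 (adjusted p = 0.371) against NT3. The first call was lost without NT4 replicate 1 or 3 or any CDK6 knockdown library (adjusted p up to 0.164), and the second without NT4 replicate 1 or 3 or dual knockdown replicate 1 (adjusted p up to 0.0805).

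Of the 5 IkB family members, 4 rose in both controls (80.0%, background 24.9%) and BCL3 fell (background 27.4%). Lower than both controls were 4 after CDK6 knockdown (80.0%, background 10.9%) and all 5 after dual knockdown (background 12.3%). NFKBIA, the classical feedback inhibitor, was at 724, 781 and 736 in proliferating cells, 1798, 1827 and 2409 in NT3 and 1321, 1625 and 1180.1 in NT4. CDK6 knockdown libraries were at 707, 1091 and 611 and dual knockdown libraries at 875, 1038 and 795, all below every control library. After CDK4 knockdown NFKBIA was at 1727, 1427 and 1847, and after CCND1 knockdown at 966, 1010.4 and 1576. It rose by 1.41 (SE 0.19, adjusted p = 9.38e-07) in NT3 and 0.87 (SE 0.19, adjusted p = 0.000404) in NT4. After CDK6 knockdown it fell, with log2 differences of -1.35 (SE 0.19, adjusted p = 5.71e-06) against NT3 and -0.81 (SE 0.19, adjusted p = 0.00235) against NT4. After dual knockdown the differences were -1.15 against NT3 and -0.60 against NT4, and the NT4 call was lost without NT4 replicate 2 (adjusted p = 0.0849) or dual knockdown replicate 3 (adjusted p = 0.0724). NFKBIE (IkB epsilon) rose by 1.13 and 0.99 in the controls and was -1.06 against NT3 and -0.91 against NT4 after CDK6 knockdown and -0.75 against NT3 and -0.61 against NT4 after CCND1 knockdown. NFKBIB (IkB beta) had smaller differences, 0.58 and 0.50 in senescence and -0.49 against NT3 and -0.41 against NT4 after CDK6 knockdown. NFKBIZ, a nuclear member that acts as a cofactor, had the largest rise of all members in NT3, 3.11, against 2.43 in NT4. It was -1.52 against NT3 and -0.84 against NT4 after dual knockdown, both past the threshold. After CDK6 knockdown the differences were -1.02 against NT3 and -0.34 (adjusted p = 0.201) against NT4, and dual against CDK6 knockdown was -0.50 (adjusted p = 0.0932). BCL3, a nuclear coactivator, was lower in both controls than in proliferating cells (-0.54 and -0.60) and lower again after CDK6 knockdown, at -0.62 against NT3 and -0.56 against NT4. Its call against NT4 was lost without NT4 replicate 2 or CDK6 knockdown replicate 1 or 3 (adjusted p up to 0.102), and its fall in NT3 was lost without NT3 replicate 1 (adjusted p = 0.0654).

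**Figure D3:**
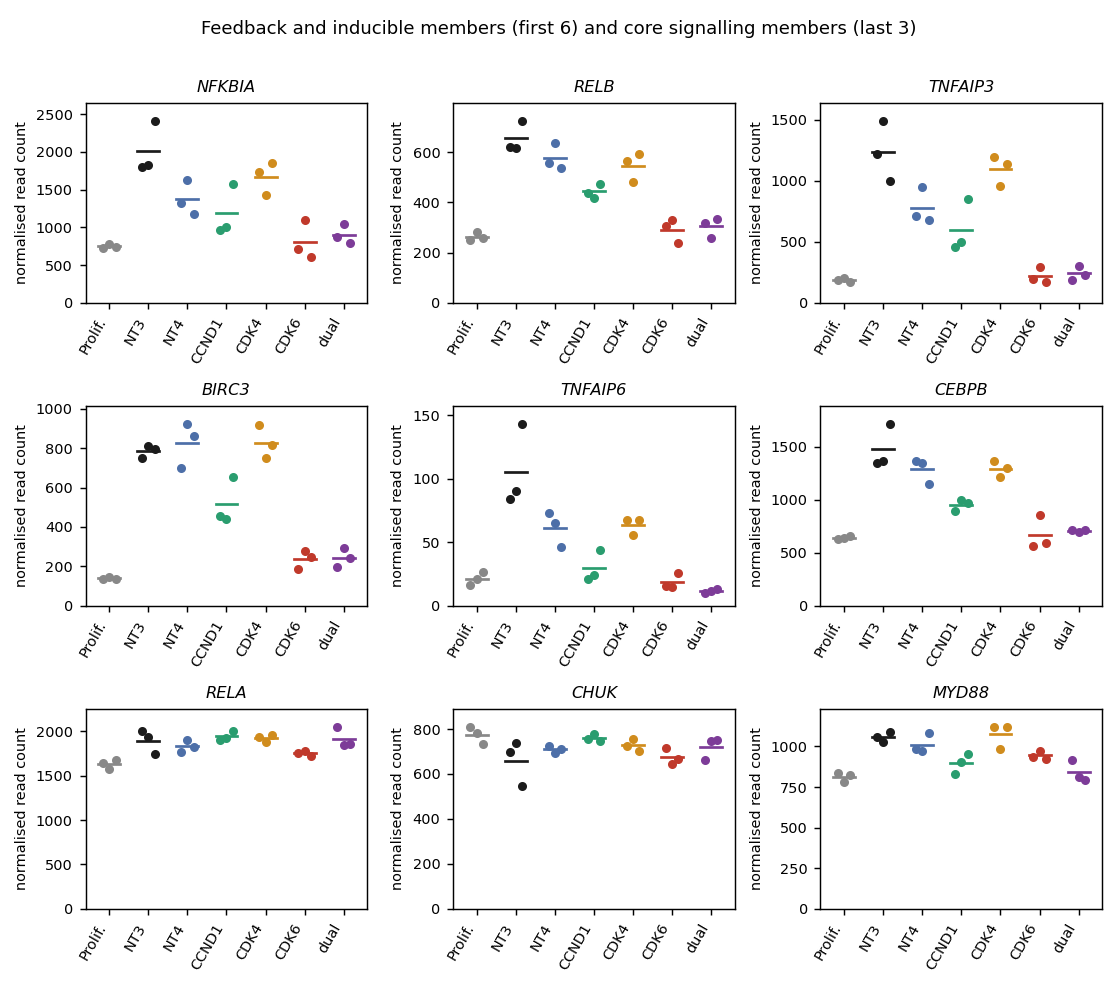
Normalised read count per library (points, y axis from 0) and group mean (line) of 9 members in the 7 groups (x axis). NFKBIA, RELB, TNFAIP3, BIRC3, TNFAIP6 and CEBPB are high in both controls and CDK4 knockdown and low after CDK6 and dual knockdown, whereas RELA, CHUK and MYD88 cover a narrower range.

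Of the 4 kinases, CHUK and IKBKB had differences of at most 0.31 in size in any comparison with the controls or of the controls with proliferating cells, while IKBKE and MAP3K8 moved further. CHUK (IKK alpha) was at 809, 781 and 733 in proliferating cells, 697, 738 and 545 in NT3, 722, 695 and 709.8 in NT4, 717, 643 and 668 after CDK6 knockdown and 660.0, 747 and 751 after dual knockdown. It was at 726, 756 and 703 after CDK4 knockdown and 757, 779.9 and 747 after CCND1 knockdown. Its fall in NT3, -0.24 (SE 0.087, adjusted p = 0.0182), was lost without NT3 replicate 3 (adjusted p = 0.162) or Proliferating replicate 1 (adjusted p = 0.0709) and under median centring (adjusted p = 0.213). Its difference from either control did not pass the threshold in any of the 4 knockdowns. IKBKB (IKK beta), the kinase that phosphorylates IkB alpha in the canonical arm, was at 1001, 955 and 955 in proliferating cells, 1099, 1095 and 887 in NT3 and 1191, 1258 and 1169.6 in NT4. After knockdown it was at 1239, 1227 and 1206 (CDK6), 1169, 1114 and 1086 (dual), 1071, 1170.3 and 1254 (CDK4) and 985, 1074 and 1093 (CCND1). IKBKB was 0.26 (SE 0.075, adjusted p = 0.00776) higher than NT3 after CDK6 knockdown but 0.02 (adjusted p = 0.863) against NT4. IKBKE (IKK epsilon) and MAP3K8, a kinase that links the pathway to ERK, differed from this. IKBKE, described at length after its values were seen, was at 328, 363 and 368 in proliferating cells, 518, 498 and 516 in NT3 and 444, 453 and 445 in NT4. It was at 316, 317 and 356 after CDK4 knockdown and 317, 317 and 283 after dual knockdown, below every library of both controls, and at 405, 405 and 414 after CDK6 knockdown. It fell, with log2 differences of -0.63 (SE 0.077, adjusted p = 3.82e-06) and -0.44 (SE 0.077, adjusted p = 0.000481) after CDK4 knockdown and -0.74 (SE 0.077, adjusted p = 9.79e-08) and -0.55 (SE 0.077, adjusted p = 8.16e-06) after dual knockdown, against NT3 and NT4. In CDK6 knockdown it was 0.31 (SE 0.077, adjusted p = 0.00333) higher than in CDK4 knockdown.

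MAP3K8 separated the 2 controls from each other. It was at 77.9, 87.3 and 100.7 in NT3, 37.8, 53.5 and 36.5 in NT4 and 23.6, 33.0 and 49.6 in proliferating cells. The knockdowns were at 28.5, 52.2 and 42.2 (CDK6), 21.0, 57.9 and 26.0 (dual), 86.2, 58.9 and 63.8 (CDK4) and 42.5, 39.5 and 55.9 (CCND1), with 19 reads in the lowest library. CDK4 knockdown overlapped NT3, and the other knockdowns overlapped NT4. MAP3K8 rose in NT3 against proliferating cells by 1.36 (SE 0.31, adjusted p = 0.000693), and in NT4 the difference was 0.30 (adjusted p = 0.413). It was -1.05 (SE 0.31, adjusted p = 0.0163) log2 units in NT4 against NT3, a call lost without NT4 replicate 1 (adjusted p = 0.0612) or NT4 replicate 3 (adjusted p = 0.0651). It fell against NT3 after CDK6 knockdown, with a log2 difference of -1.13 (SE 0.31, adjusted p = 0.0058), and against NT4 the difference was -0.08 (adjusted p = 0.884).

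Of the 13 adaptors and ubiquitin ligases, 7 rose in both controls against proliferating cells (53.8%, background 24.9%), and 3 fell (23.1%), a share near the background of 27.4%. Lower than both controls were 6 after CDK6 knockdown (46.2%, background 10.9%) and 8 after dual knockdown (61.5%, background 12.3%). BIRC3, an inhibitor of apoptosis with ubiquitin ligase activity that is itself induced by NF-kB, was at 138, 145 and 137 in proliferating cells, 748, 809 and 794 in NT3 and 699, 923 and 861 in NT4. It was at 189, 279 and 249 after CDK6 knockdown and 198, 293 and 242 after dual knockdown. CDK4 knockdown libraries were at 916, 749 and 815 and CCND1 knockdown libraries at 456, 439 and 653. The order was thus controls and CDK4 knockdown, then CCND1 knockdown, then CDK6 and dual knockdown, then proliferating cells. BIRC3 rose by 2.48 (SE 0.16, adjusted p = 6.32e-12) in NT3 and 2.55 (SE 0.16, adjusted p = 5.51e-12) in NT4. It fell, with log2 differences of -1.73 (SE 0.16, adjusted p = 1.48e-08) and -1.80 (SE 0.16, adjusted p = 1.82e-08) after CDK6 knockdown against NT3 and NT4. The differences were -1.70 against NT3 and -1.77 against NT4 after dual knockdown and -0.63 against NT3 and -0.69 against NT4 after CCND1 knockdown. After CDK4 knockdown they were 0.07 (adjusted p = 0.772) and 0.00 (adjusted p = 0.993). BIRC2, its close relative, rose by 0.71 and 0.83 in the controls and was -0.38 against NT3 and -0.50 against NT4 after CDK6 knockdown.

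TRAF1, an adaptor that recruits the BIRC ligases, differed between CDK6 and dual knockdown. It was at 88.2, 116 and 83.3 in proliferating cells, 173, 163 and 182 in NT3, 125, 169 and 184 in NT4 and 129, 128 and 143 after CDK6 knockdown. After dual knockdown it was at 80.6, 74.3 and 69.1, below every control library, after CDK4 knockdown at 137, 136 and 169.8 and after CCND1 knockdown at 129, 138 and 111.9. TRAF1 fell, with log2 differences of -1.20 (SE 0.15, adjusted p = 1.14e-06) against NT3 and -1.07 (SE 0.15, adjusted p = 7.85e-06) against NT4 after dual knockdown, and was -0.83 (SE 0.15, adjusted p = 0.000577) in dual against CDK6 knockdown. The libraries held 68 to 230 reads of it. MYD88, the adaptor of IL-1 and Toll-like receptors, was at 835, 779 and 826 in proliferating cells, 1057, 1029 and 1091 in NT3 and 983, 970.3 and 1081 in NT4. It was at 936, 975 and 924 after CDK6 knockdown, 919, 813 and 795 after dual knockdown, 1118, 986 and 1119.8 after CDK4 knockdown and 827, 906 and 954 after CCND1 knockdown. MYD88 rose by 0.38 and 0.31 in the controls and fell after dual knockdown, with log2 differences of -0.33 (SE 0.072, adjusted p = 0.000732) against NT3 and -0.26 (SE 0.072, adjusted p = 0.00628) against NT4. IRAK2, a kinase-like adaptor downstream of MYD88, moved more, rising by 2.14 and 1.70 and standing -1.16 against NT3 and -0.71 against NT4 after CDK6 knockdown. Its relative IRAK1 went the other way in senescence, -0.51 and -0.17, and the smaller value, for NT4, was lost without NT4 replicate 3 or Proliferating replicate 1 or 3 (adjusted p up to 0.145).

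SQSTM1, which encodes the autophagy receptor and signalling scaffold sequestosome, rose by 1.71 in NT3 and 1.57 in NT4, to 18768 ± 1937 and 16981 ± 609.6 from 5711 ± 136 (SD, n = 3). It was -1.02 against NT3 and -0.88 against NT4 after CDK6 knockdown, -0.63 against NT3 and -0.49 against NT4 after dual knockdown and -0.64 against NT3 and -0.50 against NT4 after CCND1 knockdown. Dual knockdown held more of it than CDK6 knockdown, by 0.39 (SE 0.061, adjusted p = 0.000128). RIPK2, the kinase of the NOD receptors, rose by 0.88 and 0.61 and was -0.90 against NT3 and -0.64 against NT4 after CDK6 knockdown. TIFA, an adaptor of TRAF6, was lower in senescence, at -0.70 and -0.87, and lower again after CDK6 knockdown, at -0.96 against NT3 and -0.79 against NT4, with 51 reads in its lowest library. TRAF2 was lower in both controls than in proliferating cells, at -0.79 and -0.89, and its difference from either control did not pass the threshold in any knockdown. TRAF6 and RIPK1, the ligase and the kinase that relay IL-1 and TNF signals to IKK, had differences between -0.13 and 0.21 (TRAF6) and between -0.17 and 0.10 (RIPK1) over the 4 knockdowns against either control, none past the threshold. TRAF3, which restrains the non-canonical arm, was 0.43 (adjusted p = 0.000981) against NT3 after CCND1 knockdown and 0.15 (adjusted p = 0.27) against NT4; in the fit of these groups alone the NT3 call was lost (adjusted p = 0.0586).

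TNFAIP3, which removes activating ubiquitin chains from pathway adaptors, had the largest fall of the 39 members in CDK6 against CDK4 knockdown. It was at 190.4, 204 and 167 in proliferating cells, 1219.8, 1489 and 996 in NT3 and 709, 949.8 and 682 in NT4. CDK6 knockdown libraries were at 198, 289.8 and 172 and dual knockdown libraries at 187, 305 and 230.2. After CDK4 knockdown it was at 1192, 953 and 1139 and after CCND1 knockdown at 454, 496 and 847. CDK6 and dual knockdown thus lay below every library of the other senescent groups. TNFAIP3 rose by 2.70 (SE 0.22, adjusted p = 4.58e-10) in NT3 and 2.04 (SE 0.22, adjusted p = 4.70e-08) in NT4. It fell, with log2 differences of -2.498 (SE 0.22, adjusted p = 1.05e-08) against NT3 and -1.84 (SE 0.22, adjusted p = 1.60e-06) against NT4 after CDK6 knockdown, and -2.37 (SE 0.22, adjusted p = 1.69e-08) and -1.71 (SE 0.22, adjusted p = 2.64e-06) after dual knockdown. CCND1 knockdown gave -1.08 (adjusted p = 0.000598) against NT3 and -0.42 (adjusted p = 0.194) against NT4, and CDK4 knockdown -0.16 (adjusted p = 0.631) and 0.50 (adjusted p = 0.163).

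Of the 4 negative feedback members, TNFAIP3 and TNIP1 were lower than both controls after CDK6 knockdown (background 10.9%) and TNFAIP3 alone after dual knockdown (background 12.3%). TNIP1, the partner of TNFAIP3, rose by 1.27 and 0.77 in the controls. After CDK6 knockdown TNIP1 was -0.76 against NT3 and -0.27 against NT4, and the NT4 call was lost without NT4 replicate 2 (adjusted p = 0.0963) or CDK6 knockdown replicate 3 (adjusted p = 0.0756). TNIP2 passed the threshold in none of the comparisons of senescent groups with a control, where its differences lay between -0.22 and 0.32. CYLD, a second deubiquitinase that restrains the pathway, followed another course. It was at 700.5, 762 and 750.3 in proliferating cells, 1279, 1399 and 1257 in NT3 and 1697, 1672 and 1742 in NT4. After CDK6 knockdown it was at 1411, 1447 and 1477, after dual knockdown at 1254, 1319 and 1188, after CDK4 knockdown at 1298, 1266 and 1208 and after CCND1 knockdown at 1329, 1379.5 and 1374. Every knockdown library lay below every NT4 library, and each knockdown group overlapped NT3 or, for CDK6, lay above it. CYLD rose by 0.83 (SE 0.057, adjusted p = 3.40e-11) in NT3 and 1.21 (SE 0.057, adjusted p = 1.03e-13) in NT4, and NT4 was 0.38 (SE 0.057, adjusted p = 4.41e-05) above NT3. All 4 knockdowns were lower than NT4, with differences of -0.24 to -0.44, but none was lower than NT3 past the threshold. CDK6 knockdown was higher than NT3 past the threshold, a call not kept under every alternative.

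Among the 8 targets and partner factors, 6 rose in both controls (75.0%, background 24.9%). Lower than both controls were 5 after CDK6 knockdown (62.5%, background 10.9%) and 5 after dual knockdown (62.5%, background 12.3%). TNFAIP6, a secreted hyaluronan-binding protein, was at 16.6, 21.3 and 26.6 in proliferating cells, 84.1, 90.1 and 143 in NT3 and 73.5, 65.2 and 46.2 in NT4. It was at 15.3, 14.9 and 25.9 after CDK6 knockdown, 9.93, 12.01 and 13.0 after dual knockdown, 67.2, 55.8 and 67.7 after CDK4 knockdown and 21.3, 24.5 and 44.2 after CCND1 knockdown. These are low values, with 9 reads in the lowest library, CDK6 knockdown overlapped proliferating cells, and dual knockdown lay below them. TNFAIP6 fell, with log2 differences of -2.44 (SE 0.29, adjusted p = 5.91e-07) against NT3 and -1.69 (SE 0.29, adjusted p = 0.00011) against NT4 after CDK6 knockdown, and -3.04 (SE 0.29, adjusted p = 2.02e-08) and -2.29 (SE 0.29, adjusted p = 1.85e-06) after dual knockdown. After CCND1 knockdown it fell, with log2 differences of -1.81 (SE 0.29, adjusted p = 4.16e-05) against NT3 and -1.06 (SE 0.29, adjusted p = 0.0115) against NT4, and the NT4 call was lost without NT4 replicate 1 or CCND1 knockdown replicate 1 or 2 (adjusted p up to 0.0704). CEBPB, the C/EBP factor that works with NF-kB at inflammatory genes, was at 629, 636 and 662 in proliferating cells, 1343, 1368 and 1712 in NT3 and 1360.0, 1349 and 1151 in NT4. It was at 567, 854 and 592 after CDK6 knockdown and 709.7, 694 and 714 after dual knockdown, below every control library, and at 1366, 1214 and 1298 after CDK4 knockdown and 897, 993 and 965 after CCND1 knockdown. CEBPB fell, with log2 differences of -1.15 (SE 0.12, adjusted p = 6.94e-08) and -0.96 (SE 0.12, adjusted p = 1.72e-06) after CDK6 knockdown, against NT3 and NT4. SOD2, the mitochondrial superoxide dismutase, rose to 11321 ± 152 in NT3 and 8336 ± 1386 in NT4 from 2349 ± 48.6 (SD, n = 3). It stood -1.102 against NT3 and -0.65 against NT4 after CDK6 knockdown, a level still 1.17 log2 units above proliferating cells. CEBPD, a related factor, was -0.92 (SE 0.17, adjusted p = 0.000417) in NT4 against NT3 and fell after CDK6 knockdown against NT3 (-0.70), whereas against NT4 the difference was 0.21 (adjusted p = 0.386).

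The adhesion receptors ICAM1 and VCAM1, which bind leukocyte integrins, parted from each other after CDK6 and dual knockdown. Both are described at length because of their values. ICAM1 was at 660.3, 664 and 659.9 in proliferating cells, 4608, 4211 and 3956 in NT3 and 2605, 3648 and 2789 in NT4. It was at 1878, 2242 and 1620.0 after CDK6 knockdown and 2417, 2481 and 2188 after dual knockdown, below every control library, and at 3697, 3867 and 4964 after CCND1 knockdown and 4759, 4229 and 4555 after CDK4 knockdown. ICAM1 fell, with log2 differences of -1.16 (SE 0.12, adjusted p = 1.05e-07) against NT3 and -0.65 (SE 0.12, adjusted p = 0.000262) against NT4 after CDK6 knockdown. For dual knockdown the fall against NT4, -0.34 (SE 0.12, adjusted p = 0.0314), was lost without NT4 replicate 2 or dual knockdown replicate 1 or 3 (adjusted p up to 0.222). CCND1 knockdown held 1.13 (SE 0.12, adjusted p = 1.49e-06) log2 units more ICAM1 than CDK6 knockdown did. After CCND1 and after CDK4 knockdown ICAM1 lay above every NT4 library and overlapped NT3. Its rise against NT4 after CDK4 knockdown passed the threshold under every alternative. VCAM1 was at 263, 264 and 312 in proliferating cells, 1801, 1102 and 1362 in NT3 and 1154, 1233 and 963 in NT4. It was at 1679, 2084 and 2534 after CCND1 knockdown, 1775, 1804 and 1361 after CDK6 knockdown, 1858, 1521 and 1779 after dual knockdown and 1218, 797 and 1497 after CDK4 knockdown. In the fit of all libraries VCAM1 was the one member higher than both controls in a knockdown. It was higher after CCND1 knockdown by 0.57 (SE 0.19, adjusted p = 0.0237) against NT3 and 0.90 (SE 0.19, adjusted p = 0.00207) against NT4. Without NT3 replicate 3, 4 members were higher than both controls after CCND1 knockdown, 1 after CDK6 knockdown and 1 after CDK4 knockdown. The NT3 call of VCAM1 was lost without NT3 replicate 2, without CCND1 knockdown replicate 2 or 3 and in the fit of these groups alone (adjusted p up to 0.128).

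**Figure D4:**
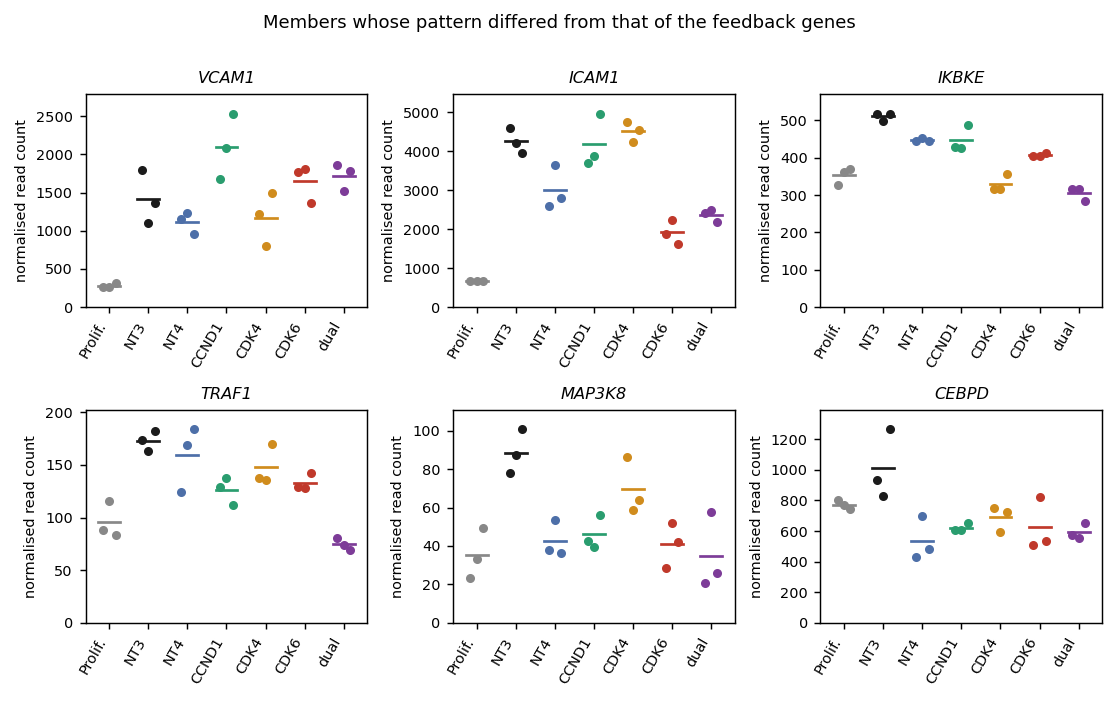
Normalised read count per library (points, y axis from 0) and group mean (line) of 6 members in the 7 groups (x axis). VCAM1 has its highest mean after CCND1 knockdown, ICAM1 is low after CDK6 and dual knockdown, IKBKE is low in the groups given CDK4 siRNA, TRAF1 is low after dual knockdown, and MAP3K8 and CEBPD differ between NT3 and NT4.

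The 2 non-targeting controls differed from each other in these genes. In NT4 against NT3, 12 members were lower and 4 higher (41.0%; background 27.8%, 14.7% higher and 13.1% lower), and their median log2 difference was -0.17. Without NT3 replicate 3 there were 15 in all, and in the fit of these 2 groups alone 8. Lower in NT4 under every alternative were CEBPD (-0.92), ICAM1 (-0.51), TNIP1 (-0.50), TNFAIP2 (-0.45) and IRAK2 (-0.44), and higher under every alternative were CYLD (0.38) and IRAK1 (0.35). TNFAIP3 was -0.66 and NFKBIA -0.55, and both calls were lost without NT4 replicate 1 (adjusted p = 0.101 for TNFAIP3 and 0.0956 for NFKBIA) or NT4 replicate 3 (adjusted p = 0.113 and 0.146). TNFAIP3 was also lost without NT3 replicate 1 or 2 (adjusted p = 0.0533 and 0.0904), and NFKBIA without NT3 replicate 3 (adjusted p = 0.108).

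CDK6 knockdown was also set directly against CDK4 knockdown. The fold changes use no control library, but the spread was estimated over all 7 groups. In this comparison 20 members were lower and 3 higher (59.0%; background 34.8%, 17.5% higher and 17.3% lower). The members' median log2 difference was -0.47, against -0.010 over all tested genes. The largest falls were TNFAIP3 at -2.34 (SE 0.22, adjusted p = 4.17e-08), BIRC3 at -1.80 (SE 0.16, adjusted p = 1.17e-08), TNFAIP6 at -1.75 (SE 0.29, adjusted p = 5.14e-05), ICAM1 at -1.25 (SE 0.12, adjusted p = 5.56e-08), TNFAIP2 at -1.19 (SE 0.11, adjusted p = 5.46e-08) and NFKBIA at -1.09 (SE 0.19, adjusted p = 0.000102). CEBPB (-0.97), SQSTM1 (-0.94), RELB (-0.91), SOD2 (-0.89) and IRAK2 (-0.83) were also lower. Higher in CDK6 knockdown were IKBKE (0.31), CYLD (0.20) and VCAM1, the last at 0.53 (adjusted p = 0.0376). The VCAM1 call was lost without CDK4 knockdown replicate 1 or 2 or CDK6 knockdown replicate 1 or 2 (adjusted p up to 0.285) and with DESeq2 (adjusted p = 0.0652). RELA was -0.13 (adjusted p = 0.077), RIPK1 -0.17 (adjusted p = 0.194) and IKBKB 0.07 (adjusted p = 0.49), none past the threshold.

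**Figure D5:**
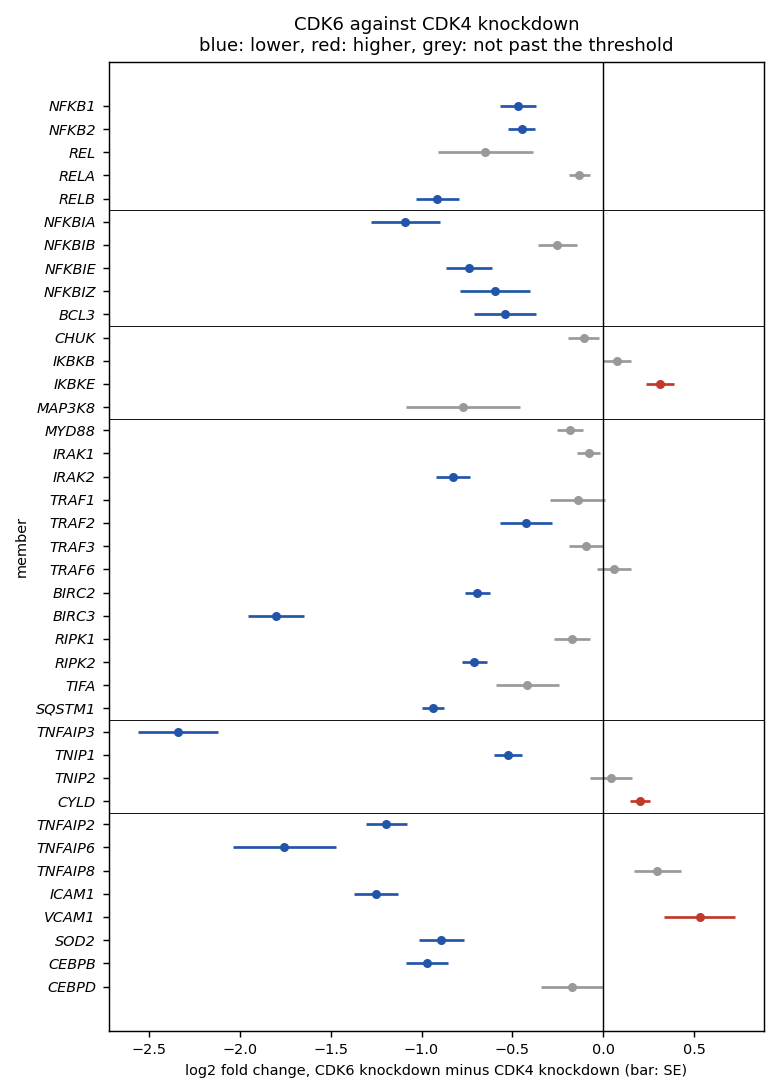
Log2 fold change of CDK6 minus CDK4 knockdown (x axis) of the 39 members (y axis, in blocks by role), with the standard error as a bar; blue points passed the threshold as lower, red as higher, and grey did not pass. TNFAIP3 lies furthest left at -2.34 and VCAM1 furthest right at 0.53.

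Dual knockdown was also set directly against CDK6 knockdown, where the share of members called was near that of all tested genes. In dual against CDK6 knockdown 3 members were lower and 1 higher (10.3%; background 13.0%, 6.05% higher and 6.94% lower), and the median was 0.034. These were TRAF1, IKBKE and CYLD, with differences of -0.83, -0.42 and -0.21, and SQSTM1. The CYLD call was lost without CDK6 knockdown replicate 2 or 3 or dual knockdown replicate 1 or 3 (adjusted p up to 0.11). TNFAIP3 differed by 0.13 (SE 0.22, adjusted p = 0.752), BIRC3 by 0.03 (SE 0.16, adjusted p = 0.924) and NFKBIA by 0.20 (SE 0.19, adjusted p = 0.529), none past the threshold.

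CCND1 knockdown was also set directly against CDK6 knockdown, where 14 members were higher and none lower in CCND1 knockdown (35.9%; background 12.2%, 6.78% higher and 5.43% lower), with a median of 0.29. The 14 held 3 of 5 subunits, 5 of 13 adaptors and ligases, 2 of 4 negative feedback members and 4 of 8 targets and partner factors, and no IkB family member or kinase passed the threshold. The largest differences were TNFAIP3 at 1.42 (SE 0.22, adjusted p = 0.000136), ICAM1 at 1.13 (SE 0.12, adjusted p = 1.49e-06), BIRC3 at 1.101 (SE 0.16, adjusted p = 4.48e-05), RELB at 0.62 (SE 0.12, adjusted p = 0.0012) and IRAK2 at 0.61 (SE 0.092, adjusted p = 0.000107). CEBPB (0.53), TNIP1 (0.45), RIPK2 (0.43), SQSTM1 (0.38) and BIRC2 (0.29) were also higher under every alternative. NFKBIA was 0.57 (adjusted p = 0.0524), NFKBIE 0.30 (adjusted p = 0.124) and TNFAIP6 0.63 (adjusted p = 0.173), which did not pass the threshold. Against the controls, the members lower in CCND1 knockdown than in both were RELB, NFKBIB, NFKBIE, BIRC3, RIPK2, TIFA, SQSTM1, TNFAIP6 and CEBPB. SQSTM1 fell, with log2 differences of -0.64 (SE 0.061, adjusted p = 6.70e-08) against NT3 and -0.50 (SE 0.061, adjusted p = 5.27e-06) against NT4, and NFKBIE of -0.75 (SE 0.12, adjusted p = 7.49e-05) and -0.61 (SE 0.12, adjusted p = 0.00137). The NT4 call of CEBPB, -0.43, was lost without NT4 replicate 1 (adjusted p = 0.0536) or CCND1 knockdown replicate 1 (adjusted p = 0.0503), and that of RELB, -0.38, without NT4 replicate 1 or 2 or CCND1 knockdown replicate 1 or 2 (adjusted p up to 0.132). The NT4 calls of NFKBIB, RIPK2 and TIFA were each lost as well without at least 1 library (adjusted p up to 0.139).

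Set against proliferating cells, the members ended at different distances after CDK6 knockdown. In that comparison 17 members were higher and 6 lower (59.0%; background 66.1%, 32.6% higher and 33.5% lower), and after dual knockdown 15 and 9 (61.5%; background 65.6%, 32.7% higher and 32.9% lower). Median centring moved the median over all genes by 0.125 and 0.132 and the share of higher among all called genes from 49.3% to 60.2% and from 49.9% to 61.1%. It moved the members' counts to 18 higher and 6 lower after CDK6 knockdown and to 20 and 6 after dual knockdown, and quantile normalization gave 19 and 6, and 20 and 6. TNFAIP3 was 0.20 (adjusted p = 0.425), NFKBIA 0.06 (adjusted p = 0.79), RELB 0.13 (adjusted p = 0.332), NFKBIE 0.08 (adjusted p = 0.602) and CEBPB 0.04 (adjusted p = 0.785) in CDK6 knockdown, none past the threshold. VCAM1 (2.55), NFKBIZ (2.09), ICAM1 (1.52), SOD2 (1.17), IRAK2 (0.98) and BIRC3 (0.75) remained above proliferating cells. TIFA (-1.66), BCL3 (-1.15), TRAF2 (-0.98) and NFKB1 (-0.45) lay below them.

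A second list of 52 genes held receptors, linkers, kinases and regulators of the same pathway, of which 50 were in the table and 47 tested. Against proliferating cells 21 rose (44.7%, background 24.9%) and 9 fell (19.1%, background 27.4%) in both controls. Against both controls 2 were higher and 10 lower after CDK6 knockdown (25.5%), 5 and 9 after dual knockdown (29.8%), and 1 and 3 after CCND1 knockdown (8.51%), while 1 was higher after CDK4 knockdown (2.13%). These shares stand beside backgrounds of 21.0%, 23.6%, 11.6% and 4.67% in either direction. By direction, 21.3% were lower (background 10.9%) and 4.26% higher (background 10.1%) after CDK6 knockdown. After dual knockdown 19.1% were lower (background 12.3%) and 10.6% higher (background 11.3%). After CCND1 knockdown 6.38% were lower (background 5.45%) and 2.13% higher (background 6.14%), and the background for higher after CDK4 knockdown was 2.05%. Their median log2 differences after CDK6 knockdown were -0.075 against NT3 and -0.070 against NT4. ZC3H12A, an RNase that degrades inflammatory mRNAs and is itself a feedback gene, had group means of 102.1 ± 17.6 in proliferating cells, 686 ± 174 in NT3, 484 ± 154 in NT4, 263 ± 105.8 after CDK6 knockdown and 231 ± 59.2 after dual knockdown (SD, n = 3). It fell, with log2 differences of -1.43 (SE 0.28, adjusted p = 0.000295) and -0.91 (SE 0.28, adjusted p = 0.017) after CDK6 knockdown. IL1RL1, the receptor of IL-33, rose by 1.88 and 1.996 in the controls and was -1.25 against NT3 and -1.36 against NT4 after CDK6 knockdown and -1.82 against NT3 and -1.93 against NT4 after dual knockdown. PELI1, a ubiquitin ligase of the IRAK kinases, was -1.07 against NT3 and -1.09 against NT4 after CDK6 knockdown, and RNF31, a subunit of the linear ubiquitin ligase, was -0.25 against NT3 and -0.26 against NT4. TRAF5 rose, at 0.48 against NT3 and 0.76 against NT4, after differences of -1.05 and -1.33 in the controls. The TNF receptor TNFRSF1A had small differences, -0.15 against NT3 and -0.14 against NT4. These genes were named after their values were seen.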

How the data were processed

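RNA sequencing after poly(A) capture was analysed in 21 libraries, 3 in each of 7 groups, grouped by their titles. The authors' deposited values are an expression signal whose header calls them normalised counts. Every value came out as a whole number of reads (100%, tolerance 0.02 reads) times a step of its library, that is, a read count over 1 size factor. Trimmomatic 0.38.1, HISAT2 2.2.1, featureCounts 2.0.3 and DESeq2 2.11.40.8 are named per the submitters' processing notes, with the build hg38. How reads of similar, overlapping or antisense genes were assigned is not given in the sources used here, so related pairs such as BIRC2 and BIRC3 are uncertain to that extent. No symbol is given for 19 of the 16383 listed genes, and depth (12892442 to 21822152 reads) covers listed genes only.

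The 11579 genes that reached 10 in 3 or more libraries were tested. After adding 1 and taking log2, limma 3.58.1 (R 4.3.3) estimated a mean for each of the 7 groups with a shared, trended variance, so fold changes of low genes are understated. Tests were two-sided, with Benjamini-Hochberg adjustment over all tested genes within each of 16 comparisons and a threshold of 0.05. Comparisons with one control share its libraries. Replicate numbers follow column order and are names only. Library codes in the column names put the irradiated libraries in 3 runs of 6, which no label explains. Full values are given for members past the threshold and changed by at least 1 log2 unit against both controls, or between the controls, and for a panel of NFKB1, RELA, NFKBIA, TNFAIP3, CHUK, IKBKB, MYD88, CYLD and CEBPB; other members given at length were chosen after their values were seen. The members and lists were chosen with earlier results of these data known. As alternatives, the pseudocount was set to 0.1 or 10, the filter dropped or set to a mean of 100, values were median-centred or quantile-normalized, edgeR 4.0.16 or DESeq2 1.42.0 was run on the recovered reads, the compared groups were fitted alone, or a library was left out, and, added after the data were seen, the run of library codes was a block. For CDK6 knockdown against NT3, edgeR called 5401 of all tested genes. The tests were tried on simulated data.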

Additional observations from a re-analysis of the deposited data

How the results depend on the processing

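No member's called change reversed direction under any alternative. Of 325 calls over the 16 comparisons, 251 passed the threshold in the same direction under every alternative that tested the gene. The filter at a mean of 100 tested 36 members and left out TNFAIP6, MAP3K8 and REL. In the fit of the compared groups alone, 8 members were called in NT4 against NT3 (16 in the fit of all groups) and 1 after CDK4 knockdown against NT3 (8 in the fit of all groups). DESeq2 called 2 members against both controls after CDK4 knockdown (1 lower, 1 higher), where limma called 1. With 1 library left out, the members called against both controls numbered 5 to 15 for CCND1 knockdown, 1 to 2 for CDK4 knockdown, 18 to 22 for CDK6 knockdown and 19 to 24 for dual knockdown. They numbered 8 to 13 for CCND1 knockdown against NT4 and 4 to 11 for CDK4 knockdown against NT3. The causes were not tested. No paired analysis was possible by the labels' replicate numbers, because the table's columns carry none. The columns do carry library codes, in which the 18 irradiated libraries form 3 runs of 6 consecutive codes, each with 1 library of every irradiated group, and no label says what a run is. Deviations from the group means correlated over all tested genes at -0.11 to 0.10 between libraries of one run (median 0.037 over 45 pairs, 1 over 0.1). Over the 39 members they correlated at -0.385 to 0.627 (median 0.242, 31 pairs over 0.1). Between libraries of different runs and groups the median over the members was -0.113. TNFAIP3, BIRC3, NFKB1, IRAK2 and RIPK1 were highest in the third run in 6 of 6 irradiated groups, TNFAIP6 in 1 and TRAF1 in 0. This was not counted over all tested genes. A fit of the irradiated groups with the run as a block, added after the data were seen, called 12 members against both controls after CCND1 knockdown, 1 after CDK4, 21 after CDK6 and 23 after dual knockdown, and 6 in dual against CDK6 knockdown (4 without the block). The share of all tested genes called was not counted for this fit, so its counts of members have no background. Of 468 values it changed the call of 11, none in direction. Of these, 9 now passed the threshold: NFKBIA in CCND1 against CDK6 knockdown (0.57, adjusted p = 0.0303), TNFAIP3 in CDK4 knockdown (0.50, adjusted p = 0.0124) and CCND1 knockdown (-0.42, adjusted p = 0.0212) against NT4, and NFKBIZ in CDK6 knockdown against NT4 (-0.34, adjusted p = 0.0126), dual against CDK6 knockdown (-0.50, adjusted p = 0.00206) and CDK4 knockdown against NT3 (-0.42, adjusted p = 0.00405), as did BCL3 in CCND1 knockdown against NT4, MAP3K8 in CDK6 against CDK4 knockdown and ICAM1 in dual against CDK6 knockdown. CYLD in CDK6 knockdown against NT3 and TNFAIP8 in CDK6 knockdown against NT4 no longer passed (adjusted p = 0.057 and 0.0703). TNFAIP6, with 9 reads in its lowest library, MAP3K8, with 19, and REL, with 40, are the members that depth limits most.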
